A study of Mus musculus with 102 samples.

Results

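The loci of Pou5f1 (which encodes OCT4), Nanog, Sox2, Klf4 and Esrrb, the core pluripotency genes of mouse embryonic stem cells (ESCs), were described at every CpG measured in them by capture bisulfite sequencing. Each locus was a fixed window of the mm9 genome, chr17:35637000-35653000 for Pou5f1, chr6:122650000-122670000 for Nanog, chr3:34540000-34560000 for Sox2, chr4:55533000-55552000 for Klf4 and chr12:87695000-87868000 for Esrrb. All CpGs inside a window were taken, whatever their level. They were 1298 of the 2177608 CpGs of the capture table, with 154 at Pou5f1, 78 at Nanog, 296 at Sox2, 208 at Klf4 and 562 at Esrrb. These make up between 24.6% (Esrrb) and 68.4% (Pou5f1) of the CpGs in the sequence of each window, so that the gaps between measured stretches are places the table does not cover. In the GENCODE annotation of mm9 the genes lie at chr17:35642982-35647721 (Pou5f1, ENSMUSG00000024406.9, plus strand), chr6:122657507-122664651 (Nanog, ENSMUSG00000012396.5, plus strand), chr3:34548927-34551383 (Sox2, ENSMUSG00000074637.3, plus strand), chr4:55540013-55545347 (Klf4, ENSMUSG00000003032.7, minus strand) and chr12:87702067-87862578 (Esrrb, ENSMUSG00000021255.10, plus strand). Positions within a locus are given below in bases from the first annotated start of its gene, counted in the direction of transcription.

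The series holds 102 samples of ESC DNA, 24 of them enriched with SureSelect probes before bisulfite sequencing, which reads an unmethylated cytosine as thymine and a methylated one as cytosine. The wild-type (WT) line is of strain C57BL6/J, has its TET proteins and carries floxed Dnmt3a and Dnmt3b alleles, and it was measured at day 0 without transduction. The TTKO line, 1 clone made from it, has mutations in Tet1, Tet2 and Tet3 on the same floxed background, and it was measured without transduction at day 0 and at days 4, 8, 10, 13, 17 and 29 after Cre protein, which removes Dnmt3a and Dnmt3b, though not in all cells. The deposited table has 8 columns, each of which joins 3 replicates, so the spread between replicates could not be computed here and every test below compares joined libraries and not conditions. No mock-treated column is among these 8, so the loss of DNMT3 and the time in culture after transduction cannot be told apart, and RNA is not among these data, so the identity of the cells was not checked by expression. Cells were grown on feeder cells before the transduction and moved to plates without feeders soon after it. The amplicon tables of the series, which keep their replicates apart, hold 0 CpGs inside the windows. For scale, their amplicon CpGs between 20% and 80% had a median SD of 3.25 percentage points in WT cells at day 0 (78 CpGs), 3.70 points in TTKO cells at day 0 (119 CpGs) and 3.82 points at day 29 after Cre (94 CpGs), with n = 3 replicates each. Median coverage in the 5 windows was between 210 reads (Klf4) and 430 reads (Nanog), and the lowest was 50.

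DNMT3A and DNMT3B add methylation to unmethylated CpGs, DNMT1 copies it after replication, and TET proteins oxidise it on the way to its removal. OCT4 and SOX2 bind next to each other at composite motifs in the regulatory regions of pluripotency genes, their own included, and NANOG, KLF4 and ESRRB act in the same network. The promoters of Pou5f1 and Nanog are known to be free of methylation in ESCs and to gain it in differentiated cells.

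A joint OCT4 and SOX2 motif was searched in the windows on both strands as the SOX letters CNTTGTN followed directly by the OCT letters ATGC, and 4 matches were found in 248005 bases. In the promoter sequences of RefSeq (GRCm38.p6, 250 bases before to 50 after a start), 86 of 32544 distinct sequences (0.264%) held a match, among them both entries of Nanog and none of the entries of Pou5f1, Sox2, Klf4 and Esrrb. The 3 matches with measured CpGs within 150 bases are shown on the plus strand of mm9 with the match in capitals, since the CpGs near them were low in both lines. They are at chr17:35640953-35641053 (Pou5f1, match at -1984 from the first start site), chr6:122657390-122657490 (Nanog, match at -72) and chr3:34552926-34553026 (Sox2, match at 4044).
Pou5f1: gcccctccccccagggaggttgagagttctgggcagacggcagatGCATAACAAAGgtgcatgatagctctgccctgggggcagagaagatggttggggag
Nanog: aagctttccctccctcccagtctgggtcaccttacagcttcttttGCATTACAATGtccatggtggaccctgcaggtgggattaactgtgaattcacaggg
Sox2: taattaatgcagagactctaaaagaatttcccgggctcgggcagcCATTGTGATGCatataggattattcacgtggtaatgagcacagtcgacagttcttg
CpGs within 150 bases of these matches had mean levels of 2.59% in WT, 2.04% in TTKO at day 0 and 1.22% in TTKO at day 29 for Pou5f1 (5 CpGs). The means for Nanog were 0.982%, 1.40% and 0.872% (5 CpGs), and those for Sox2 were 0.773%, 1.07% and 0.866% (8 CpGs). These means were under 3% in the 3 columns compared. For scale, 56.1% of all CpGs of the 5 loci stayed under 5% in all 8 columns. The remaining match, at 145117 in an intron of Esrrb, had no measured CpG within 150 bases.

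The following 160 bases come from the stretch with the highest rise between WT and TTKO in each locus, with the measured CpGs in capitals and each sequence given along the strand of the gene. They were chosen by that rise, so their difference from the CpGs near the matches follows from the choice. In the values below, those after Cre are given in the order of days 4, 8, 10, 13, 17 and 29. A stretch is a run of at least 5 measured CpGs with gaps of at most 250 bases. They lie in a coding exon of the neighbouring gene Tcf19 (chr17:35651439-35651598), downstream of Nanog (chr6:122665358-122665517), upstream of Sox2 in the noncoding gene Sox2ot (chr3:34540047-34540206), downstream of Klf4 (chr4:55537752-55537911, minus strand) and in an intron of Esrrb (chr12:87858778-87858937).
Pou5f1: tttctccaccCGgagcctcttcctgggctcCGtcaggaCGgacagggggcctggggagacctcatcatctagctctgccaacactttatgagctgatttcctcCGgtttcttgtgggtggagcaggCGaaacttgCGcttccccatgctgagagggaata
Nanog: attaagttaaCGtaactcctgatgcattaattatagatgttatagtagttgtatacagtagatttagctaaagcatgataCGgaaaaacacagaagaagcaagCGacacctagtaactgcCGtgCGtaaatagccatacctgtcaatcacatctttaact
Sox2: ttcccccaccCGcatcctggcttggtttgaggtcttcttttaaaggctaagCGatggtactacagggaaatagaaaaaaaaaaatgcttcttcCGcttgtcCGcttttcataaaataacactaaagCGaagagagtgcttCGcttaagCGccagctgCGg
Klf4: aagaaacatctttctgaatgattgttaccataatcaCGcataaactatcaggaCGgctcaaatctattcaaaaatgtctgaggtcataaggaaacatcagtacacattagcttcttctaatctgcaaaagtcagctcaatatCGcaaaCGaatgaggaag
Esrrb: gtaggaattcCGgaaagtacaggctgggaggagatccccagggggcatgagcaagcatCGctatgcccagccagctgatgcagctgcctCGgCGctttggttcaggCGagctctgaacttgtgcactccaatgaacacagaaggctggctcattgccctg
Over the CpGs of these sequences the mean went from 22.9% in WT to 65.2% in TTKO and 23.5% at day 29 for Pou5f1 (6 CpGs), and from 12.5% to 75.8% and 32.8% for Nanog (5 CpGs). For Sox2 it went from 23.6% to 39.2% and 9.43% (8 CpGs), for Klf4 from 30.4% to 58.2% and 20.9% (4 CpGs), and for Esrrb from 20.8% to 78.8% and 45.6% (5 CpGs).

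Across whole windows, methylation rose from WT to TTKO cells at each locus and fell after Cre. By the mean over CpGs Nanog rose most, from 5.61% ± 7.50 in WT to 25.9% ± 30.1 in TTKO cells (SD over 78 CpGs), followed by Esrrb, from 17.4% ± 20.4 to 34.4% ± 32.1 (562 CpGs). Pou5f1 went from 5.95% ± 10.3 to 10.8% ± 20.5 (154 CpGs), Klf4 from 6.21% ± 13.4 to 9.74% ± 20.3 (208 CpGs) and Sox2 from 2.51% ± 5.54 to 3.46% ± 9.13 (296 CpGs). In WT cells the order was Esrrb, Klf4, Pou5f1, Nanog and Sox2, in which Klf4, Pou5f1 and Nanog differed by less than 1 point, far less than their spread over CpGs, and in TTKO cells Nanog moved to the second place. The SD over CpGs is larger than most of the means because each window holds both stretches near 0 and stretches that rise. By the median over CpGs Esrrb came before Nanog, with a rise of 15.6 points at Esrrb and 1.92 points at Nanog. The direction for the smaller rises also depends on the summary, since the medians over CpGs differed by -0.21 points at Sox2 and -0.046 points at Klf4, and the means over the gene with 2000 bases to each side differed by -0.068 points at Pou5f1 and -0.23 points at Sox2. The fall at Sox2 does so too, since the change from day 0 to day 29 was 0.24 points over the gene with 2000 bases to each side and -0.0035 points by the median.

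A CpG was called where a two-sided Fisher's exact test on its reads had a Benjamini-Hochberg adjusted p under 0.05 over all CpGs of the table and the levels differed by at least 10 points. By this rule 375 of the 1298 CpGs (28.9%) were higher in TTKO than in WT cells, against 37.9% of the whole table, and 2 were lower, against 0.391% of the table. The share was 49.8% at Esrrb (280 CpGs), 43.6% at Nanog (34), 14.3% at Pou5f1 (22), 12.5% at Klf4 (26) and 4.39% at Sox2 (13), of which that of Nanog is near the share of the table. Outside promoters the shares were 59.2% at Esrrb, 52.3% at Nanog, 33.3% at Pou5f1, 19.0% at Klf4 and 6.05% at Sox2, against 49.1% of the table. Both CpGs that were lower had fewer than 100 reads in each line, the one downstream of Klf4 (5359 bases from the start) with 31.6% in WT and 12.2% in TTKO, and the one in an Esrrb intron (at 92607) with 71.6% in WT and 48.0% in TTKO. They were described after their values were seen. Of the 1298 CpGs, 728 (56.1%) stayed under 5% in all 8 columns, compared with 35.8% of the table.

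**Figure D1:**
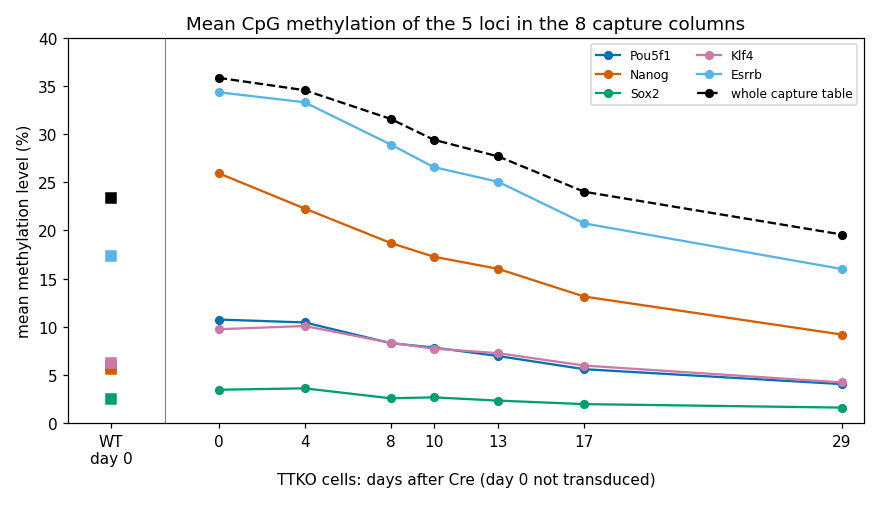
Mean methylation level (%) over the CpGs of each locus and of the whole capture table, for WT cells at day 0 (squares) and TTKO cells at day 0 and 4 to 29 days after Cre (circles). Each point is 1 column that joins 3 replicates, so no error bar is drawn. Nanog and Esrrb rose most from WT to TTKO, and the mean of Nanog at day 29 was still above that in WT, though its median was not.

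The promoters of Pou5f1, Nanog, Sox2 and Klf4 stayed near 0 in both lines and after Cre. Over CpGs from 1000 bases before to 500 bases after any annotated start of a protein-coding transcript, the mean was 2.15% ± 1.64 in WT, 1.97% ± 1.21 in TTKO and 1.82% ± 1.78 at day 29 for Pou5f1 (88 CpGs). For Nanog it was 1.46% ± 0.62, 2.10% ± 1.15 and 0.92% ± 0.57 (13 CpGs). For Sox2 it was 1.35% ± 1.08, 1.23% ± 1.05 and 1.29% ± 1.04 (81 CpGs), and for Klf4 1.42% ± 1.37, 1.43% ± 1.23 and 1.30% ± 1.56 (71 CpGs). No promoter CpG of these 4 genes was called in TTKO against WT, and the highest level of one in TTKO cells was 6.67%, at Klf4. With 2000 bases to each side of the starts the TTKO means were 2.17% at Pou5f1, 2.42% at Nanog, 1.21% at Sox2 and 2.64% at Klf4. Among these 4 genes this held for promoters rich in CpGs and for promoters poor in them. Around the first start, the ratio of observed to expected CpGs was 0.929 at Klf4, 0.743 at Sox2, 0.301 at Nanog and 0.259 at Pou5f1. Esrrb was also poor in CpGs there, at 0.268, but its first start had 53.9% in WT and 81.2% in TTKO (6 CpGs). Over all 690289 promoter CpGs of protein-coding genes in the table, the mean was 5.84% in WT, 10.2% in TTKO and 5.30% at day 29, and 13.5% of them were higher in TTKO. Among 15306 genes with at least 5 promoter CpGs, 8.00% had a lower TTKO promoter level than Sox2, 14.1% a lower one than Klf4, 23.1% a lower one than Pou5f1, 24.6% a lower one than Nanog and 63.4% a lower one than Esrrb. The Esrrb level ranked here, 9.93%, joins its methylated first start with later starts. The means around those at 60527 and 109000 were 9.32% and 2.23%.

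Pou5f1 encodes OCT4, the POU factor without which the pluripotent inner cell mass does not form. From -4087 to 4075 bases around its first start, 6 stretches cover the upstream region, the promoter and the gene. The longest of them, from -575 to 2151 (67 CpGs), had means of 2.13% in WT, 1.87% in TTKO at day 0 and, after Cre, 2.12%, 1.19%, 1.69%, 1.40%, 1.86% and 1.95% over the following time points. All 8 columns lay within 1 point, with no order along the time course. The stretch from -2368 to -1088 (17 CpGs), which holds the OCT4 and SOX2 match shown above, had 1.83% in WT, 1.70% in TTKO and 1.07% at day 29. Pou5f1 has processed copies elsewhere in the genome, so reads from its exons may be shared with them.

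The rise of the Pou5f1 window came from its downstream end, which lies in Tcf19, a gene on the opposite strand. Of the 22 CpGs that were higher in TTKO, 21 lay among the 27 CpGs inside Tcf19, where the mean went from 22.3% to 48.8% and then to 15.0% at day 29. Outside Tcf19 the mean over 127 CpGs was 2.46% in WT, 2.66% in TTKO and 1.73% at day 29. Without the CpGs inside Tcf19 the rise of the Pou5f1 window was therefore 0.20 points in place of 4.81.

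Within Tcf19, the stretch from 8347 to 9165 (17 CpGs) had the largest rise of the window. It had 18.7% in WT, 53.9% in TTKO at day 0 and then 51.4%, 43.5%, 39.1%, 33.9%, 26.1% and 16.3% over the following time points. It lost methylation at each step after Cre and ended 2.42 points below WT, with 30.3% of the TTKO level kept. The stretch next to it, from 7213 to 7257 (6 CpGs), kept less, 18.8%, with 32.2% in WT, 45.8% in TTKO and 8.58% at day 29. The CpG with the largest rise, at 8467, went from 24.5% (20.5% to 29.1%, 387 reads; 95% Wilson intervals) to 80.7% (76.4% to 84.3%, 388 reads) and 36.3% at day 29 (31.8% to 41.1%, 405 reads), with an adjusted p of 1.77e-56 for TTKO against WT by Fisher's exact test. Between the 2 stretches a CpG outside any stretch, at 7800, was high throughout and kept the largest share among CpGs with at least 50% in TTKO cells (75.7%), at 68.4% in WT (64.3% to 72.3%, 516 reads), 88.7% in TTKO (85.8% to 91.1%, 559 reads) and 67.2% at day 29 (63.0% to 71.2%, 500 reads). The smallest share of these, 16.0%, was kept at 9017, where 55.9% in TTKO fell to 8.92%. Shares kept by single CpGs are compared below among CpGs of this kind with at least 100 reads in every column. These intervals, like all below, cover counting error only, as PCR copies cannot be told from separate molecules in these reads.

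Sox2, the HMG-box partner of OCT4, had the lowest levels of the 5 loci. Its gene lies wholly inside Sox2ot, a noncoding gene. The stretches that hold its promoter and its single exon, from -1273 to -47 (79 CpGs) and from 442 to 1227 (77 CpGs), had 1.32% and 1.79% in WT, 1.31% and 1.13% in TTKO and 1.43% and 1.65% at day 29. Downstream, 36 CpGs between 2693 and 4339 had 0.84% in WT, 1.05% in TTKO and 0.92% at day 29, and none of them reached 5% in any column. All 13 CpGs that were higher in TTKO lay upstream. The stretch from -8904 to -8663 (10 CpGs) rose most, from 20.5% in WT to 32.9% in TTKO, and was at 36.2%, 25.7%, 23.8%, 18.2%, 14.4% and 7.72% over the following time points. It fell below its WT level by day 13, and its 10 CpGs differed widely, with an SD of 25.6 points in TTKO cells. The CpG at -8723 in this stretch had the largest rise of the locus, from 28.9% to 58.3%, and also kept the largest share, 39.2%. The smallest share was kept at -2346, in a stretch where all other CpGs but 1 neighbour (24.9% in TTKO) were under 3% in TTKO cells. It was at 41.8% in WT (38.4% to 45.4%, 758 reads), 69.0% in TTKO (65.3% to 72.5%, 630 reads) and 15.7% at day 29 (13.1% to 18.7%, 655 reads).

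Nanog, a homeodomain factor that holds ESCs in self-renewal, was low at its promoter and raised behind the gene in TTKO cells. The stretch upstream, from -5004 to -4378 (20 CpGs), the promoter from -462 to 279 (13 CpGs) and an intronic stretch from 1287 to 1791 (8 CpGs) stayed between 0.72% and 2.75% in every column, and the next stretch, from 2053 to 2728 (6 CpGs), had 4.96% in WT and 13.0% in TTKO. Farther along the gene and behind it, levels were several times higher in TTKO than in WT cells. From 4057 to 4526 (7 CpGs, 2 of them in an exon) the mean was 16.8% in WT, 56.7% in TTKO and 19.9% at day 29, and all 7 CpGs were called higher in TTKO and lower at day 29. Nanog, like Pou5f1, has processed copies elsewhere in the genome, and how reads that match several places were counted is not given in the sources used here.

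The largest rises of the window lay behind the gene, where all 22 downstream CpGs were higher in TTKO than in WT and lower at day 29 than at day 0. The stretch from 7696 to 7975 (8 CpGs) had 11.9% in WT, 70.7% in TTKO at day 0 and then 64.1%, 58.6%, 53.9%, 49.8%, 41.1% and 28.3% over the following time points. The stretch from 8259 to 9024 (11 CpGs) had 3.65% in WT, 55.7% in TTKO at day 0 and then 46.7%, 38.8%, 35.8%, 34.0%, 27.0% and 16.4% over the following time points. Both stayed above their WT level through day 29, by 16.4 and 12.8 points, and kept 39.97% and 29.5% of the TTKO level. The CpG with the largest rise, at 9014, went from 2.94% in WT (1.15% to 7.32%, 136 reads) to 73.9% in TTKO (67.6% to 79.4%, 211 reads) and 26.6% at day 29 (21.2% to 32.9%, 214 reads), with an adjusted p of 2.03e-43 for TTKO against WT by Fisher's exact test. The largest share, 53.2%, was kept at 7975, which went from 80.1% to 42.6%. A lone CpG at the upstream edge of the window, at -7452, kept the smallest share, with 40.8% in WT (36.4% to 45.5%, 448 reads), 57.0% in TTKO (53.0% to 60.8%, 625 reads) and 3.72% at day 29 (2.39% to 5.73%, 511 reads), which is 6.53% of its level in TTKO.

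Klf4, a zinc finger factor of the reprogramming set, was near 0 over its promoter and most of its body. The stretch from 239 to 2409 (142 CpGs) had 1.52% in WT, 1.44% in TTKO at day 0 and then 1.53%, 1.29%, 1.21%, 1.53%, 1.33% and 1.27% over the following time points. These levels lay within 0.4 points, and no CpG of the stretch was called in TTKO against WT. Both ends of the locus were methylated. Upstream, the stretch from -2330 to -866 (37 CpGs) had 9.89% in WT, 17.3% in TTKO and 6.88% at day 29, with the high CpGs at its far end. Behind the promoter region, from 4271 to 4795 in an exon (8 CpGs), the mean went from 14.7% to 30.1% and then to 7.61%. Downstream of the gene, from 7265 to 7585 (6 CpGs), it went from 21.9% to 52.4% and then to 18.7%, the largest rise of the window, whereas from 5334 to 5720 (7 CpGs) it went from 21.9% to 29.7% and 7.44%. The 3 stretches of Klf4 with at least 20% in TTKO cells thus ended below WT. The CpG with the largest rise, at 7324, had 8.88% in WT (5.76% to 13.4%, 214 reads), 65.9% in TTKO (58.4% to 72.6%, 167 reads) and 23.1% at day 29 (17.6% to 29.7%, 186 reads). The largest share, 68.4%, was kept by a lone CpG at -4658, at 78.5% in WT and 87.8% in TTKO, which was not called between the lines (adjusted p = 0.0869, Fisher's exact test). The smallest, 21.3%, was kept at 7490, with 51.5% in TTKO and 10.98% at day 29.

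**Figure D2:**
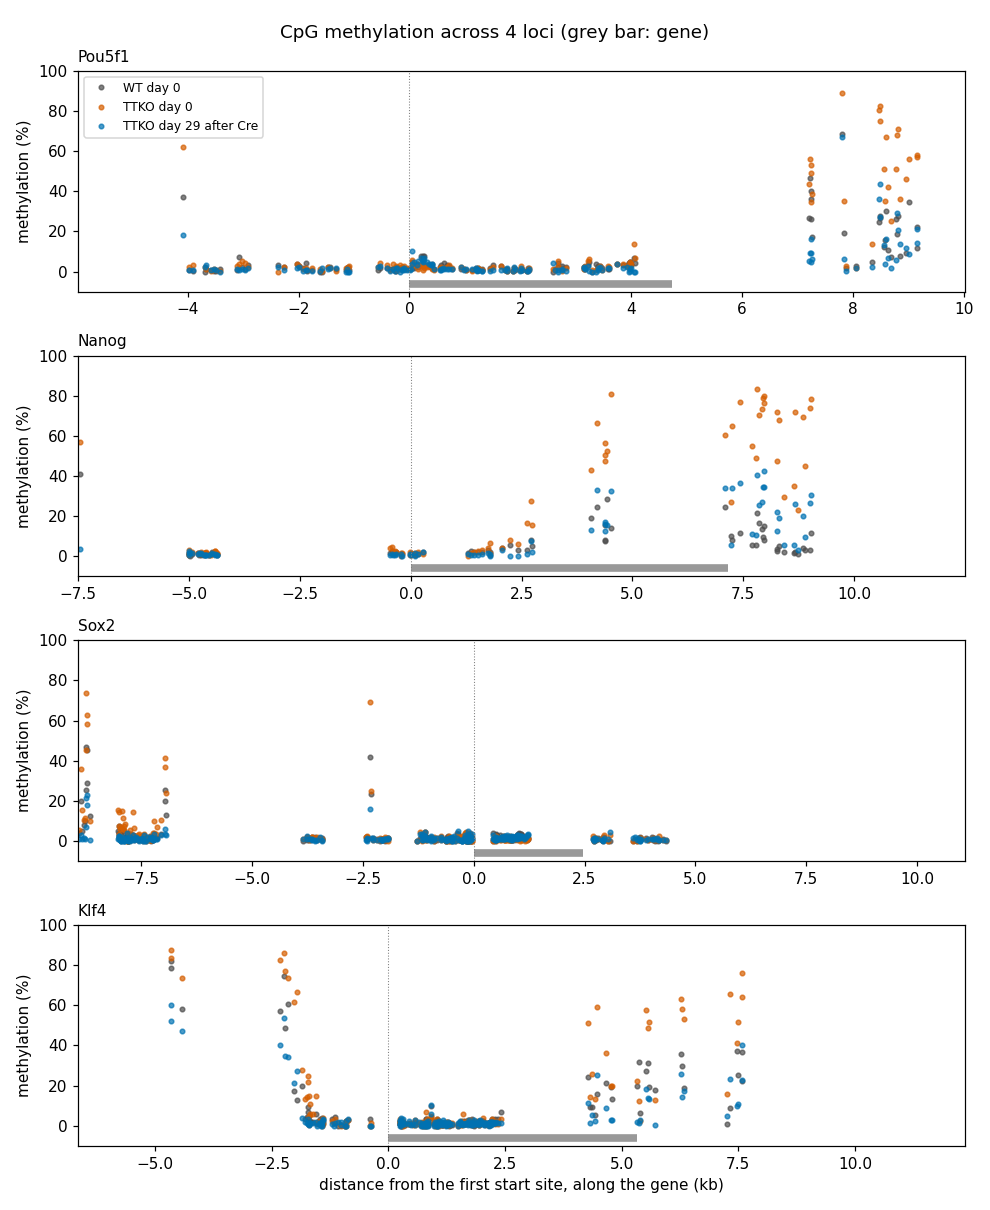
Methylation level (%) of each measured CpG against its distance from the first start site (kb, in the direction of transcription) at Pou5f1, Nanog, Sox2 and Klf4, in WT cells at day 0, TTKO cells at day 0 and TTKO cells 29 days after Cre. Levels are near 0 around each start site, and the raised TTKO levels lie away from it, among them all 22 CpGs downstream of Nanog.

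Esrrb encodes an orphan nuclear receptor of the pluripotency network, and the window around its gene of 160512 bases held 280 of the 375 CpGs that were higher in TTKO. It differed from the other 4 in that its first annotated start was methylated. The 6 CpGs from -9 to 127 had 53.9% in WT, 81.2% in TTKO at day 0 and then 85.0%, 80.7%, 77.5%, 77.3%, 69.5% and 65.1% over the following time points. They kept 80.3% of the TTKO level, the most of the 30 stretches with at least 20% in TTKO cells, and stayed above WT. One of them, at 127, was at 82.2% in TTKO (77.9% to 85.8%, 360 reads) and at 83.1% at day 29 (78.9% to 86.6%, 366 reads), so that no loss was detectable there (adjusted p = 0.887, Fisher's exact test). The later starts were lower. The stretch around the start at 60527, from 60097 to 61679 (101 CpGs), had 2.40% in WT, 6.43% in TTKO and 2.83% at day 29, with 7 CpGs called higher in TTKO, and the stretch around the start at 109000, from 108722 to 110244 (54 CpGs), had 3.22%, 2.25% and 1.61%, with 1 CpG called.

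The window was divided 1000 bases before each later start, a division made after the values were seen. Between the first and the second start (107 CpGs) the mean was 25.3% in WT, 59.6% in TTKO and 32.7% at day 29, and 83.2% of the CpGs were higher in TTKO. Between the second and the third start (236 CpGs) it was 19.3%, 31.6% and 14.5%, and 38.6% were higher. From the third start to the end of the gene (219 CpGs) it was 11.5%, 24.97% and 9.39%, and 45.7% were higher. The share over the whole table was 37.9%, near those of the second and the third part. Those parts, however, hold many low CpGs near start sites. Around the starts at 60527 and 109000, 7 of 52 and 1 of 42 CpGs were higher, against all 6 around the first start. Outside promoters the share was 59.2% over Esrrb and 49.1% over the table. How far the parts differ without the CpGs near starts was not tested. The share of the TTKO level kept at day 29 was 54.9%, 46.0% and 37.6% in these 3 parts. Only the first part was above its WT mean at day 29, and 44 of its CpGs were called higher at day 29 than in WT and 11 lower, against 12 and 53 in the second part and 13 and 24 in the third. As shares of CpGs these are 41.1% higher and 10.3% lower in the first part, 5.08% and 22.5% in the second and 5.94% and 10.96% in the third, against 8.05% and 21.9% over the table.

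Single stretches of Esrrb showed how far levels could move. In an intron before the second start, from 34136 to 34981 (23 CpGs), the mean was 19.8% in WT, 75.5% in TTKO at day 0 and then 68.6%, 64.4%, 59.8%, 56.2%, 46.4% and 36.4% over the following time points, and all 23 CpGs were called in both comparisons. It holds the CpG with the largest rise of the 5 loci among those with at least 100 reads in every column, at 34465, which went from 1.40% in WT (0.55% to 3.54%, 286 reads) to 78.1% in TTKO (72.7% to 82.7%, 260 reads) and 37.3% at day 29 (31.7% to 43.2%, 268 reads), with an adjusted p of 6.2e-88 for TTKO against WT by Fisher's exact test. Near the end of the gene, from 156721 to 156915 (6 CpGs), the mean went from 21.2% to 78.1% and then to 41.4%. Other intronic stretches emptied almost wholly. From 105901 to 106001 (5 CpGs) the mean was 9.17% in WT, 22.7% in TTKO and 2.41% at day 29, which is 10.6% of the TTKO level and the smallest share kept of the 30 stretches, and from 141826 to 142233 (8 CpGs) 10.9% was kept. The smallest share of a single CpG of Esrrb, 8.78%, was kept at 146277, which went from 50.7% to 4.45%.

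**Figure D3:**
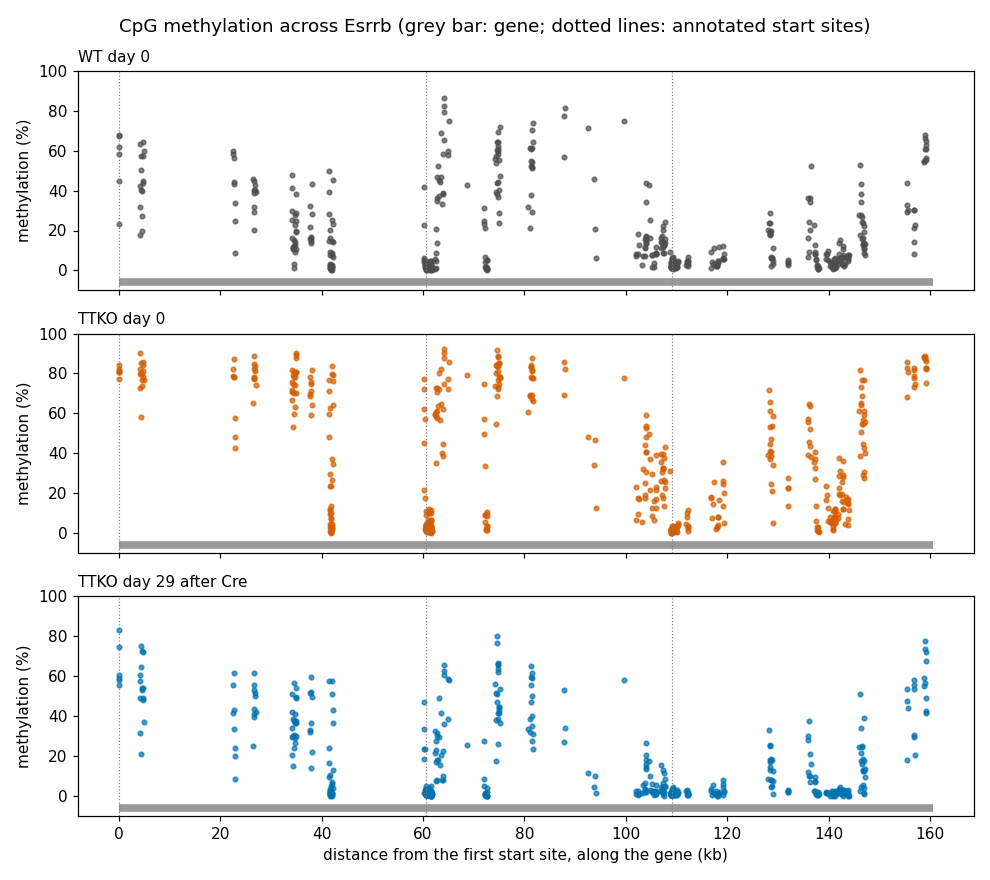
Methylation level (%) of each measured CpG of the Esrrb window against its distance from the first start site (kb), in WT cells at day 0, TTKO cells at day 0 and TTKO cells 29 days after Cre. Dotted lines mark annotated start sites, with starts closer than 500 bases drawn as 1. Levels are high at the first start and lower at the later ones, with TTKO means of 9.32% around 60527 and 2.23% around 109000, and the gene is high in TTKO cells before the second start, with a mean of 59.6% between the first and the second start.

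After Cre, calls accumulated with time. Against TTKO at day 0, 12 of the 1298 CpGs were lower on day 4, 109 on day 8, 252 on day 10, 317 on day 13, 405 on day 17 and 437 on day 29. Over all CpGs measured, the shares called lower on these days were 1.16%, 11.1%, 26.2%, 35.2%, 47.5% and 51.9%. The 437 CpGs are 33.7% of the loci, 27 at Pou5f1, 34 at Nanog, 17 at Sox2, 39 at Klf4 and 320 at Esrrb. Of the 12 CpGs at day 4, 8 lay at Nanog. In the other direction 4 CpGs were higher on day 4 (0.0898% of all CpGs measured) and 1 on day 8 (0.0259%), all in Esrrb introns. None of the 1298 was higher on the later days, by Fisher's exact test with at least 10 points, where the shares over all CpGs were 0.00647%, 0.00459%, 0.00119% and 0.00129%, and with no least difference 3 were higher on day 29. In a test that allows for a spread between replicates (over-dispersion 0.0055), the CpGs lower on days 4, 8 and 10 were 0, 5 and 96, and no CpG was higher on day 4 or 8. With at least 20 points, 0, 21 and 55 were lower on these days and none was higher on day 4. The mean level kept at day 29 was 37.6% at Pou5f1, 35.4% at Nanog, 46.4% at Sox2, 43.3% at Klf4 and 46.6% at Esrrb, against 54.6% over the table. In the Pou5f1 window it was 30.7% inside Tcf19 and 64.96% outside it, where levels were low throughout. CpGs under 5% in all 8 columns, which can fall little, were 86.8% of Sox2, 75.5% of Klf4, 52.6% of Nanog and 29.2% of Esrrb. Among stretches with at least 20% in TTKO cells, the 1 of Sox2 kept 23.5%. Those of Klf4 kept 25.1% to 35.6%, those of Nanog 29.5% to 39.97% and those of Esrrb 10.6% to 80.3%.

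At day 29 the loci lay on both sides of their WT levels. By the same rule, 88 of the 1298 CpGs (6.78%) were higher than in WT, against 8.05% of the whole table, and 129 (9.94%) were lower, against 21.9% of the table. These counts were 39 and 55 with at least 20 points and 53 and 78 with at least 150 reads in every column, and 216 were lower with no least difference. Nanog had 15 higher and 2 lower, while Pou5f1 had 2 and 11, Sox2 0 and 9, Klf4 2 and 19, and Esrrb 69 and 88. The mean at day 29 was above WT by 3.58 points at Nanog and below it by a change of -1.90 points at Pou5f1, -0.91 points at Sox2, -1.99 points at Klf4 and -1.40 points at Esrrb. By the median over CpGs Nanog too was lower at day 29, at 1.58% against 2.10% in WT. Among the 30 stretches with at least 20% in TTKO cells, 17 were below WT at day 29, none of them among the 3 of Nanog. This comparison shares its columns with those above and adds no independent samples.

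**Figure D4:**
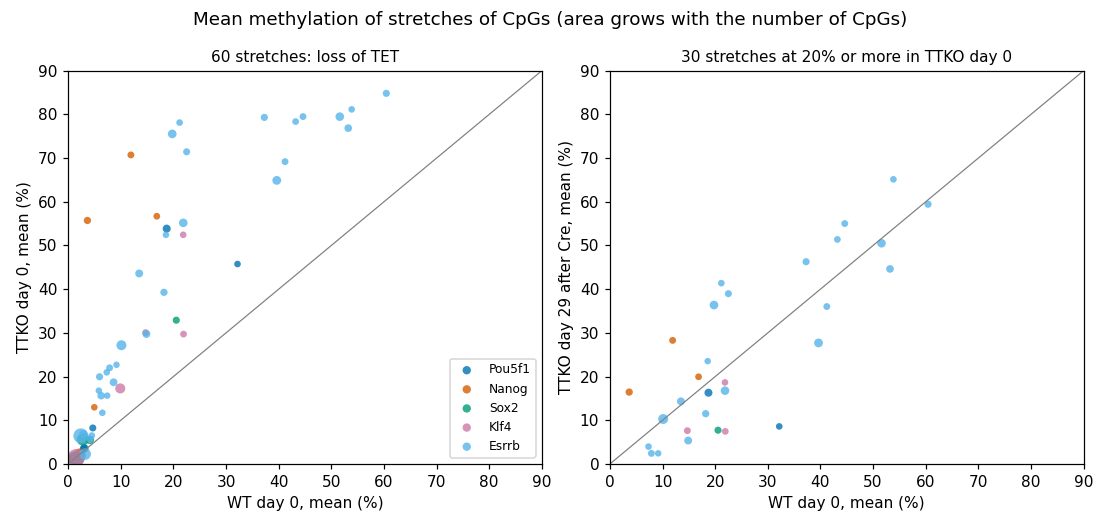
Mean methylation level (%) of stretches of at least 5 CpGs, each point 1 stretch with an area that grows with its number of CpGs. Left, TTKO at day 0 against WT at day 0 for all 60 stretches; right, TTKO 29 days after Cre against WT for the 30 stretches with at least 20% in TTKO cells. On the left 32 stretches lie at least 10 points above WT, and on the right 17 lie below the line of equal levels.

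Rates were fitted to the TTKO time course with the model of the study, in which k_me is the rate of gain and k_de the rate of loss in cells without TET. Of the 1298 CpGs, 387 (29.8%) were low noise, which means that both rates were held within a log2 range of 2, against 44.8% of the table. With a beta-binomial likelihood 215 CpGs were low noise, with the same median log2 k_de of -4.36 over the 5 loci. CpGs near 0 carry no information on the rates, so these 387 are methylated CpGs of the loci and stand for no promoter but that of Esrrb. They are not all the methylated CpGs, since some with slow loss were not low noise. Among those left out were the CpG at 127 in Esrrb (82.2% in TTKO, fitted log2 k_de -8.90) and that at -4658 at Klf4 (87.8%, -6.15). Of the 26 at Pou5f1, 25 lay inside Tcf19 and 1 outside it, so that the rates of the Pou5f1 window below are those of Tcf19. The median log2 k_de was -3.95 in the Pou5f1 window (26 CpGs), -4.23 at Nanog (33), -3.54 at Sox2 (13), -4.02 at Klf4 (32) and -4.50 at Esrrb (283), and it was -4.78 over the table. In rates per day these are 0.0647, 0.0535, 0.0861, 0.0617 and 0.0442, against 0.0365 in the table. The medians of the 5 windows were on the side of faster loss, although the single CpGs of Esrrb ranged from -7.80 to -2.16 and the quartiles of the table from -5.60 to -4.09. The windows were not matched to the table by level. Over all CpGs, the mean in TTKO cells at day 0 was 20.1% in the windows and 35.8% in the table. Whether this difference in level accounts for the faster medians was not tested. Within Esrrb the median rose from -4.98 before the second start to -4.50 before the third and -3.95 behind it. The median log2 k_me differed less between the loci, from -3.95 at Nanog and Klf4 to -3.40 in the Pou5f1 window, which is the value inside Tcf19, with -3.81 over the table. The first start of Esrrb was the slowest stretch, with a median log2 k_de of -6.15 over 5 low noise CpGs.

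**Figure D5:**
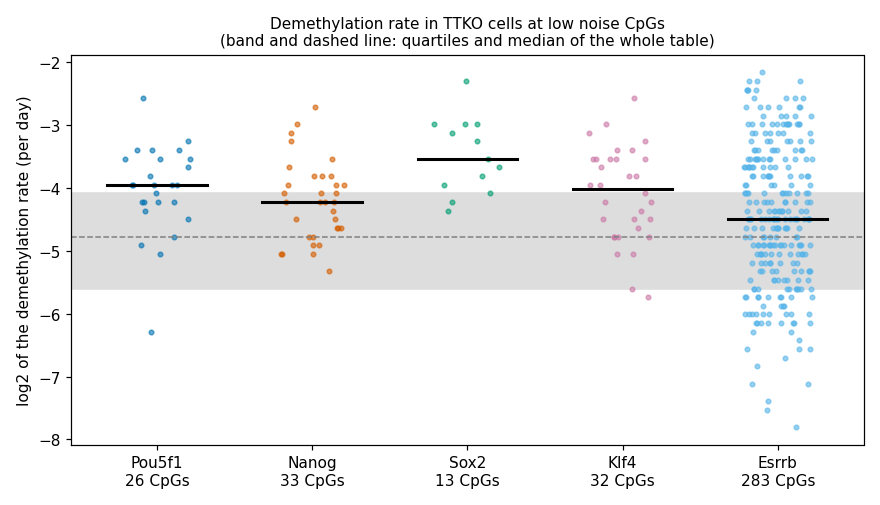
Fitted log2 demethylation rate (per day) in TTKO cells at the 387 low noise CpGs of the 5 loci, 1 point per CpG, with a black line at each locus median. The grey band spans the quartiles of all low noise CpGs of the table and the dashed line is their median of -4.78, below the median of each locus.

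Under the same model, with an equal k_me in both lines, the log2 odds ratio of methylation in TTKO over WT equals the log2 fold by which TET raises the rate of loss. Its median over CpGs was 1.05 at Nanog and 1.42 at Esrrb, 0.19 at Pou5f1, 0.20 at Klf4 and -0.02 at Sox2, and 0.95 over the table. CpGs near 0 weigh on these medians, with 86.8% of Sox2, 75.5% of Klf4 and 70.8% of Pou5f1 under 5% in all 8 columns. Outside promoters the medians were 1.66 at Nanog, 1.63 at Esrrb, 1.08 at Pou5f1, 0.27 at Klf4 and 0.11 at Sox2. In the Pou5f1 window the median was 1.85 inside Tcf19 and -0.007 outside it. In the stretches it reached 5.15 behind Nanog (8259 to 9024), 4.23 in the stretch before it, 4.04 in an intron of Esrrb (34136 to 34981) and 2.68 in the Tcf19 stretch of the Pou5f1 window. In the stretch of Pou5f1 from -575 to 2151 it was -0.05, at levels where a ratio of small counts says little.

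CpG density went with low levels in some loci. In Klf4, 144 CpGs with at least 10 CpGs within 100 bases had a mean of 1.45% in TTKO cells, against 28.4% at 64 sparser CpGs, and in Esrrb the means were 3.48% (144 CpGs) and 44.99% (418 CpGs). At Pou5f1 and Nanog no CpG had so many neighbours, although their promoters were as low. Spearman's rho between density and the TTKO level over the CpGs of a locus was -0.48 at Klf4, -0.47 at Esrrb, -0.34 at Nanog, -0.09 at Sox2 and close to 0 at Pou5f1, given as a description, since neighbouring CpGs share reads and are not independent.

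Of 24 further genes of the pluripotency network, 23 were in the annotation and had CpGs within the gene and 5000 bases to each side. Of their 3951 CpGs, 1051 (26.6%) were higher in TTKO than in WT and 10 were lower, near the 28.9% of the 5 loci and below the 37.9% of the table, and 1246 (31.5%) were lower at day 29 than at day 0, against 33.7% of the 5 loci and 51.9% of the table. The gene mean rose in 22 of 23 genes. It rose most in Gbx2 (6.89% to 28.3%), a homeobox gene that supports self-renewal, Sall4 (9.91% to 28.6%), a zinc finger partner of OCT4, and Dppa4 (12.6% to 29.6%). The difference was small in Rif1 (1.90% to 2.64%), and Dppa5a was lower in TTKO (9.30% to 6.04%). By these values Nanog, with a rise of 20.3 points, lay near Gbx2 (21.4 points).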

How the data were processed

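Levels in 24 capture samples of mouse ESCs were used. The authors sheared DNA, enriched it with SureSelect Methyl-Seq probes, converted it with bisulfite, sequenced it as 51 bp pairs, aligned reads to mm9 with Rbowtie in QuasR (versions not given in the sources used here) and called methylation with qMeth. The deposited table gives coverage as read counts and methylation as percent for each CpG, not normalised, with 3 replicates joined per column and at least 50 reads in every column. Level times coverage was whole at 100% of values (tolerance 0.05 points), and the total on CpGs was between 421283985 and 740590811 reads per column. In the amplicon tables, methylation was deposited by the authors as a fraction beside coverage, and it was used here for the spread between replicates only. Replicates are named in the labels, which do not say whether they were separate cultures. Deposited columns of rates, TET activity and inference confidence hold the authors' own findings and were not used, nor was the list of amplicon regions and primers.

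All positions checked on the 5 chromosomes were CG in NCBIM37, and genes came from GENCODE M1. Two-sided Fisher's exact tests per CpG, adjusted by Benjamini-Hochberg over 2177608 CpGs, were run with python 3.11.15, numpy 2.4.6, scipy 1.17.1 and numba 0.67.0 (pandas 2.3.3, matplotlib 3.10.9). Rates followed the study's model, with 80 rates per axis up to 2 per day in steps of 10%, a binomial likelihood, k_E of 0.5 per day, 8% of the level before Cre added for incomplete excision and a conversion error of 0.0025. Unlike in the study, where each replicate was fitted on its own, 1 joined column per day was fitted. A CpG was low noise where the border probability was under 0.08 and both 95% ranges were under 2 on the log2 scale. In odds ratios 0.5 was added to each count. Test and fit were tested on simulated data. Windows, members, gene lists and tests were chosen with earlier results of these data known.

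Named were the 5 genes, and per locus the stretches with the promoter, the largest rise and the largest and smallest share kept at day 29 (among stretches with at least 20% in TTKO cells). Single CpGs with at least 100 reads in every column were named by the same rule (shares kept at 50% or more), as were the 3 further genes with the largest and the 3 with the smallest rise. The result of 1 of these genes is not reported here. Other stretches and CpGs were chosen after their values were seen. Alternatives were the least difference, the coverage minimum, over-dispersion, locus summaries and bounds, promoter width, stretch gap, likelihood, k_E, mixing and added counts.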

Additional observations from a re-analysis of the deposited data

How the results depend on the processing

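The number of CpGs higher in TTKO than in WT stayed within 1.5 times of 375 under each alternative but the minimum of 150 reads in every column, where fewer CpGs remained and it was 233. The 2 CpGs that were lower became 10 with no least difference, 1 with 20 points and 0 with at least 100 or 150 reads. With a least difference of 20 points, the CpGs lower than before Cre were 0, 21, 55, 110 and 259 on days 4, 8, 10, 13 and 17, and on day 29 there were 39 higher and 55 lower than WT. With an over-dispersion of 0.0055 between replicates they were 0, 5 and 96 on days 4, 8 and 10, and the 4 and 1 CpGs higher on days 4 and 8 fell to 0. With no least difference, 19 CpGs were lower at day 4, 3 were higher at each of days 8, 13 and 29 and 4 at day 17, and 216 were lower at day 29 than in WT. With 20 points 0 CpGs were higher at day 4, and with 100 or 150 reads 0 were higher at day 8. With at least 150 reads in every column, 201, 244 and 250 CpGs were lower on days 13, 17 and 29, and 53 were higher and 78 lower than WT at day 29.

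Rises from WT to TTKO over the gene with 2000 bases to each side were -0.068 points at Pou5f1, 27.4 at Nanog, -0.23 at Sox2 and 2.43 at Klf4. By the median over CpGs they were 0.14 at Pou5f1, 1.92 at Nanog, -0.21 at Sox2, -0.046 at Klf4 and 15.6 at Esrrb. With all reads of a locus pooled they were 22.9 at Nanog, 5.48 at Klf4 and 16.0 at Esrrb, and with at least 100 reads 19.0 at Nanog and 4.56 at Klf4. Changes from day 0 to day 29 over the gene with 2000 bases to each side were -0.53 points at Pou5f1, -21.8 at Nanog, 0.24 at Sox2 and -3.67 at Klf4. By the median they were -0.88 at Pou5f1, -2.44 at Nanog, -0.0035 at Sox2, -0.25 at Klf4 and -20.0 at Esrrb. With reads pooled they were -18.6 at Nanog, -2.48 at Sox2, -7.89 at Klf4 and -17.3 at Esrrb, and with at least 100 reads -16.2, -2.14, -6.40 and -18.0. Without the CpGs inside Tcf19, an alternative chosen after seeing the data, the Pou5f1 window rose by 0.20 points and changed by -0.93 points to day 29. The cause of these shifts was not tested beyond the choice of CpGs and summary itself. With a beta-binomial likelihood 215 CpGs were low noise in place of 387, and the median log2 k_de over the 5 loci was -4.36 under that and each other rate alternative.

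No paired analysis was possible because the capture columns join the replicates and the amplicon tables hold no CpG in the windows. For the same reason leaving out single replicates and the planned amplicon alternatives were not run. The joined columns limit every comparison to counting error, and coverage near 50 reads limits single CpGs.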
